A study of Mus musculus with 11 samples.

Results

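The cytosolic ribosomal protein genes are those whose products, with the ribosomal RNAs, build the large and small subunits of the ribosome in the cytosol. They were picked by symbol (Rpl, Rps or Rplp followed by a number and at most 1 letter of a, x, l or y) and by a mean of at least 10 normalised reads over the 11 libraries. Of 48593 genes in the deposited table, 82 symbols matched, and 80 of these passed the level threshold, 49 of the large subunit (Rpl and Rplp) and 31 of the small subunit (Rps). The mean level chose the members, so the levels are given as a description. Just inside the threshold stood Rpl32l, with a mean of 11.2 normalised reads, Rpl39l with 50.5 and Rps4l with 332. Just outside it stood Rpl3l, a muscle paralog of Rpl3, with a mean of 5.65, and Rpl10l, a testis paralog of Rpl10, which was 0 in all 11 libraries. The pattern also left out Rpsa, Fau, Rps3a1 and Rack1, which encode further ribosomal proteins and are described separately.

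RNA was sequenced from germinal centre B cells of mouse spleen, which had been sorted as B220+PNA+CD95+ cells on day 12 after an intraperitoneal injection of sheep red blood cells. All mice carried 1 Cg1cre allele, which makes Cre recombinase from the Cγ1 immunoglobulin locus in germinal centre B cells, so cells that do not switch on this locus kept their floxed genes. The Crebbp-KO group (n = 3; CBP-KO_1, CBP-KO_53 and CBP-KO_55) was Crebbp fl/fl with both Ep300 alleles intact, the Ep300-KO group (n = 3; p300-KO_18, p300-KO_287 and p300-KO_289) was Ep300 fl/fl with both Crebbp alleles intact, and the WT group (n = 5; WT_4, WT_7, WT_41, WT_46 and WT_288) had both genes intact. Values per library are given in this order. Crebbp and Ep300 encode the lysine acetyltransferases CREBBP and p300. The WT mice came from crosses of Crebbp mice and none from an Ep300 cross, so loss of Ep300 and a difference of strain background around that gene cannot be told apart.

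Each ribosomal protein is needed in 1 copy per ribosome, apart from the stalk proteins, and cells make them in matched amounts. Their mRNAs are short and very abundant, and most begin with a run of pyrimidines, the 5′ terminal oligopyrimidine (TOP) motif, through which mTORC1 and LARP1 set how well they are translated. Ribosomal proteins that are not built into ribosomes are degraded, and some of them, RPL5 and RPL11 among them, then bind MDM2 and raise p53. Germinal centre B cells divide fast and use MYC in bursts, and MYC raises many genes of ribosome production. Mammalian genomes also hold many processed copies of ribosomal protein mRNAs, pseudogenes whose sequence can be close enough to the parent gene to share short reads with it.

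The 11 libraries held 53550726 to 132861266 reads counted to genes, and tests covered 16515 genes that averaged at least 10 normalised reads. Germinal centre B cell markers were high in every library, with summed levels of 493083 to 610198 in Crebbp-KO, 570111 to 635720 in Ep300-KO and 552424 to 623857 normalised reads in WT cells. The Ep300 gene averaged 14466 ± 600.4 normalised reads in Ep300-KO and 21268 ± 1276 in WT cells (SD), a log2 change of -0.55 (limma adjusted p = 0.000150). Crebbp averaged 8247 ± 612 in Crebbp-KO and 8866 ± 743 in WT cells (limma adjusted p = 0.459), and a whole-gene count, which also takes in exons outside a floxed segment, does not check that genotype. WT_46 had the highest summed macrophage markers, 9378 normalised reads, and p300-KO_18 held both Xist and Y-linked transcripts, so values that rest on them are also given without both. Nothing in the labels gives sex, litter or batch, and p values measure the spread between these libraries.

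As a group the members made up 4.31%, 4.61% and 4.77% of all normalised reads in Crebbp-KO libraries. They made up 5.26%, 4.45% and 4.93% in Ep300-KO libraries, against 5.15%, 4.61%, 5.01%, 4.87% and 4.65% in WT libraries. The 3 groups overlapped in this share, and the lowest library was CBP-KO_1 and the highest p300-KO_18. Per kilobase of mRNA the most abundant members over all libraries were Rplp0, with 129112 normalised reads per kb, Rplp1 with 112604 and Rpl4 with 110969. Rplp0 and Rplp1 encode stalk proteins, and the stalk is the part of the large subunit that recruits the elongation factors. Because the RNA is bulk RNA of sorted cells, fewer cells of a type and less RNA per cell cannot be told apart.

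Of the 80 genes, 1 was called lower in Crebbp-KO against WT cells (Rpl22), 1 lower in Ep300-KO against WT cells (Rpl3), and 1 higher in Crebbp-KO against Ep300-KO cells (Rpl3). A call is an adjusted p below 0.05 in limma over all 16515 genes. Over all genes, 8.36% were called in Crebbp-KO against WT, 11.9% in Ep300-KO against WT and 9.42% between the knockouts, so the members' 1 of 80 (1.25%) was below each of these shares. Split by direction, all genes gave 3.48% higher and 4.88% lower in Crebbp-KO against WT, 5.84% higher and 6.09% lower in Ep300-KO against WT, and 4.79% higher and 4.63% lower in Crebbp-KO against Ep300-KO cells. At an unadjusted p below 0.05, 18 members were lower and 0 higher in Crebbp-KO against WT cells (against 11.8% and 10.7% of all genes). For Ep300-KO against WT 3 were lower and 0 higher (against 12.8% and 12.9% of all genes). Between the knockouts 3 were lower and 1 higher in Crebbp-KO cells (against 12.6% and 12.4% of all genes). The 95% interval of the log2 change lay within 0.5 of 0 (1.41-fold) for 77, 76 and 76 of the 80 members in these 3 comparisons, and within 0.25 of 0 (1.19-fold) for 33, 68 and 35.

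**Figure D1:**
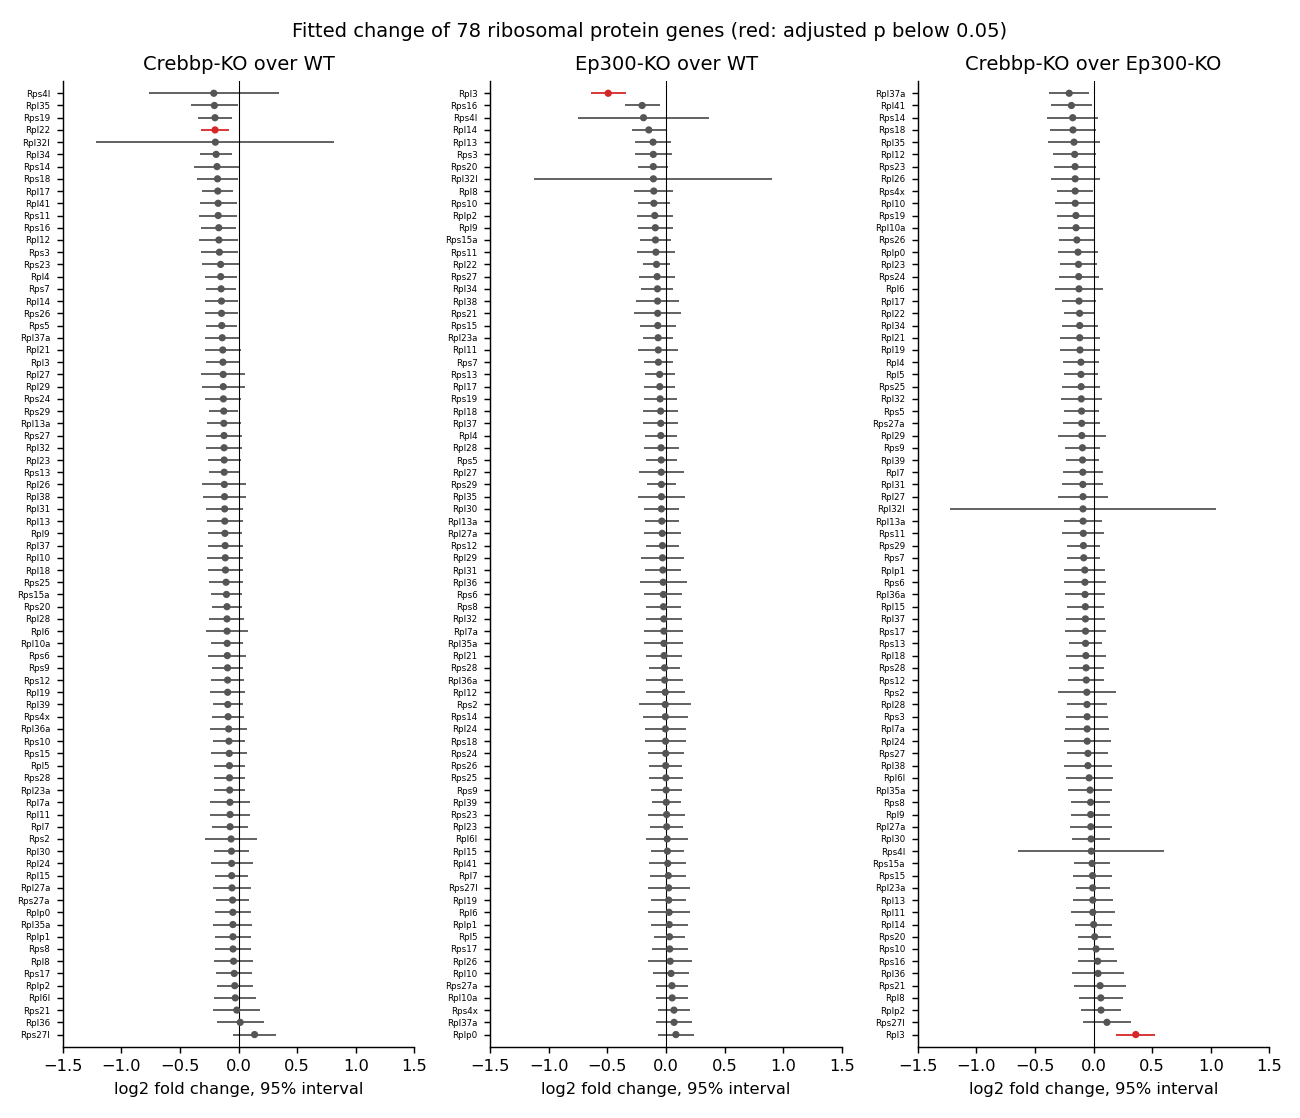
Log2 change of 78 of the 80 ribosomal protein genes (points, with 95% interval) in Crebbp-KO against WT, Ep300-KO against WT and Crebbp-KO against Ep300-KO cells; Rpl39l, whose intervals are far wider, and 1 gene not reported here are left out, and red marks genes called by limma. Most changes lie within 0.25 of 0, and Rpl3 stands apart with -0.49 in Ep300-KO against WT and 0.36 in Crebbp-KO against Ep300-KO cells.

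Rpl3 encodes the large subunit protein next to the peptidyl transferase centre. It lies at chr15:80077791-80091868 on the minus strand (GRCm38, the mm10 build), 1493 kb from Ep300 on the same chromosome. Its row held 73639, 63781 and 70781 normalised reads in Ep300-KO libraries. It held 82568, 90764 and 93779 in Crebbp-KO libraries, and 105678, 90374, 99963, 99228 and 93156 in WT libraries. Every Ep300-KO library was below every WT library, and Rpl3 fell by 0.49 on the log2 scale (SE 0.07, limma adjusted p = 0.000751). Its exact two-sided permutation p was 0.0179, which is as low as this test can go with 3 and 5 libraries. The Crebbp-KO libraries overlapped WT cells (log2 change -0.13, limma adjusted p = 0.272). Crebbp-KO cells were above Ep300-KO cells by 0.36 on the log2 scale (SE 0.08, limma adjusted p = 0.0118). The exact permutation p of that difference was 0.100, the smallest for 3 against 3 libraries, and without CBP-KO_55 the limma adjusted p was 0.0562. As a share of all member reads Rpl3 took 2.54% ± 0.0338 in Crebbp-KO, 1.88% ± 0.0383 in Ep300-KO and 2.59% ± 0.0560 in WT libraries (SD).

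The lower Rpl3 row went with a higher row of a near-identical copy. Rpl3-ps1 is annotated as a processed pseudogene at chrX:13202571-13203780 on the plus strand, and was examined after its values were seen. Its 1210 annotated bases align to the 1351-base Rpl3 mRNA with 1208 identical bases, 2 mismatches and 0 gaps, and the longest identical run is 728 bases. The mismatches are shown because only a read that covers one of them can tell the copies apart within this length. Positions count from 1 at the 5′ end of the Rpl3 mRNA, the Rpl3 base comes first, and capitals mark the base that differs. The substitution C137A lies in coding exon 2 of 10 of Rpl3, at chr15:80082509-80082549 (minus strand) and chrX:13202608-13202648 (plus strand), and T866C in coding exon 6, at chr15:80079733-80079773 and chrX:13203337-13203377.
Rpl3 around C137A: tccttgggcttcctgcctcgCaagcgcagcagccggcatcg
Rpl3-ps1 around C137A: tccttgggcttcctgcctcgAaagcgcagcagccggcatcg
Rpl3 around T866C: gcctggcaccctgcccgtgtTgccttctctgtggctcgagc
Rpl3-ps1 around T866C: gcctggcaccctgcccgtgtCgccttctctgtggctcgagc

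The Rpl3-ps1 row held 24991, 19795 and 24690 normalised reads in Ep300-KO libraries. It held 2339, 2740 and 2767 in Crebbp-KO libraries, and 3237, 2818, 3221, 3083 and 2868 in WT libraries. Each Ep300-KO library was far above all others, and the row rose by 2.92 on the log2 scale in Ep300-KO against WT cells (SE 0.09, limma adjusted p = 8.94e-10, exact permutation p = 0.0179). The log2 difference of Crebbp-KO against Ep300-KO cells was -3.14 (limma adjusted p = 1.45e-09), and that of Crebbp-KO against WT cells was -0.22 (limma adjusted p = 0.150). Summed Y-linked transcripts ran from 0 to 24733 normalised reads over the Ep300-KO libraries, and with them as a covariate the log2 change of the row against WT cells was 2.94 and was still called by limma.

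The difference in means, Ep300-KO minus WT, was -28280 normalised reads for the Rpl3 row and 20113 for the Rpl3-ps1 row. A second copy, Rpl3-ps2 (chrX:74170653-74171866, plus strand), is identical to the Rpl3 mRNA over 1201 of 1215 aligned columns. It averaged 364 ± 44.6 in Ep300-KO and 930 ± 113 normalised reads in WT cells (SD), and fell by 1.35 on the log2 scale (limma adjusted p = 4.73e-05). When the 3 rows were added up, Ep300-KO libraries held 99032, 83952 and 95785 normalised reads, Crebbp-KO libraries 85794, 94325 and 97589, and WT libraries 109990, 94032, 104156, 103283 and 96817. All 3 groups overlapped, and the log2 change of the sum in Ep300-KO against WT cells was -0.13 (95% interval -0.29 to 0.02, limma adjusted p = 0.275, exact permutation p = 0.143). For Crebbp-KO against Ep300-KO cells the log2 difference of the sum was -0.0040 (95% interval -0.18 to 0.17, limma adjusted p = 0.985), and for Crebbp-KO against WT cells -0.13 (limma adjusted p = 0.291). Rpl3-ps1 took 25.2%, 23.6% and 25.8% of the sum in the Ep300-KO libraries. Its share lay between 2.73% and 2.91% in Crebbp-KO and between 2.94% and 3.09% in WT libraries. Which copy the reads came from was not tested, since reads are not analysed here.

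**Figure D2:**
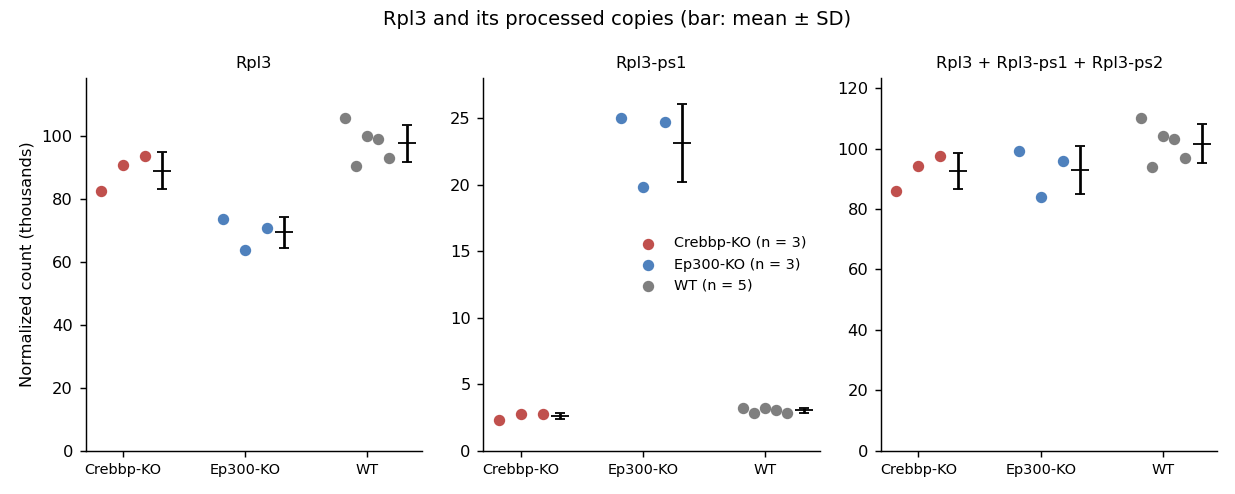
Normalised reads (axis in units of 1000) of Rpl3, of its processed copy Rpl3-ps1 and of Rpl3, Rpl3-ps1 and Rpl3-ps2 added up, per library (points) with mean and SD (bars), in Crebbp-KO (n = 3), Ep300-KO (n = 3) and WT (n = 5) cells. Rpl3 is lowest and Rpl3-ps1 highest in the 3 Ep300-KO libraries, and the sums of the 3 groups overlap.

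Many genes around Rpl3 also had lower rows in Ep300-KO cells. Of 24 tested genes within 500 kb of Rpl3, itself left out, 10 were called in Ep300-KO against WT cells (41.7%, against 11.9% of all genes), 9 lower and 1 higher. Apobec3, a cytidine deaminase, fell by 3.55 on the log2 scale (limma adjusted p = 1.71e-13), and Cbx7, a Polycomb protein, fell by 2.44 (limma adjusted p = 1.70e-08). The others that fell were Gm49412, Dmc1, Cbx6, Cacna1i, Josd1, Gtpbp1 and Tomm22, and Dnal4 rose by 0.36. Apart from Cacna1i, all 10 called genes lie on the side of Rpl3 that faces away from Ep300. Genes that were not called lie on both sides. Between the knockouts, a comparison with the same Ep300-KO libraries, these 10 genes were called too, 9 higher and 1 lower in Crebbp-KO cells. Cbx6 (log2 change 0.24) and Sun2 (-0.24) were called in Crebbp-KO against WT cells (8.33%, against 8.36% of all genes). Within 500 kb of Ep300 itself, 3 of 25 tested genes were called in Ep300-KO against WT cells (12.0%). Wider windows around the 2 genes, which overlap, held like shares, with both Rpl3 and Ep300 left out of each. Within 2000 kb these were 22.6% (19 of 84) around Ep300 and 21.2% (18 of 85) around Rpl3, and within 5000 kb they were 23.8% (41 of 172) and 20.5% (42 of 205). Rpl8, another member on chromosome 15, lies 4679 kb from Ep300 and had a log2 change of -0.10 (limma adjusted p = 0.436). Here too, loss of Ep300 and the strain background around it cannot be told apart.

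**Figure D3:**
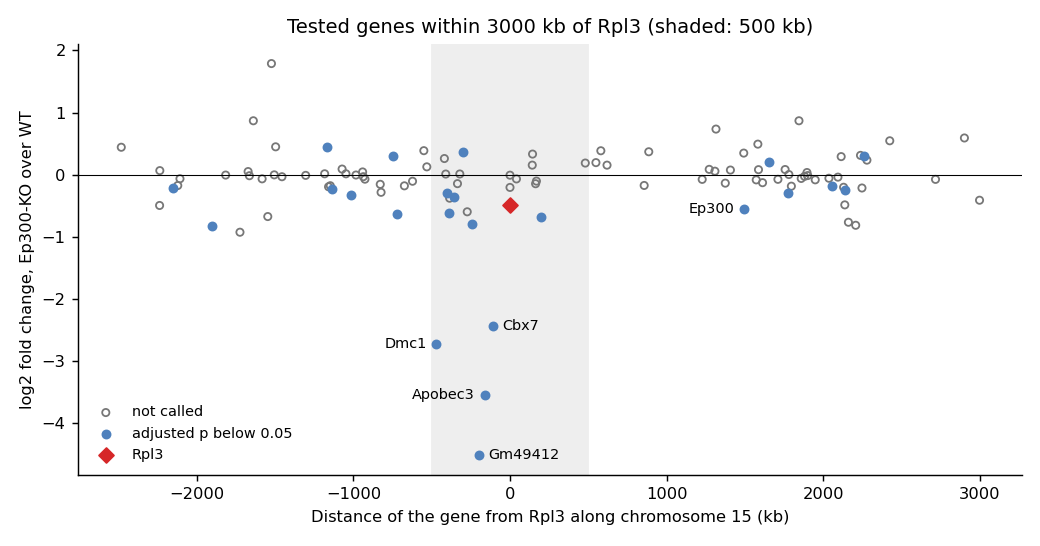
Log2 change in Ep300-KO against WT cells of the tested genes within 3000 kb of Rpl3, by distance from Rpl3 (kb), with the 500 kb on either side shaded, called genes as filled blue points and Rpl3 as a red diamond. Low values gather near Rpl3, mostly on the side away from Ep300 (negative distances), with Apobec3 at -3.55 and Cbx7 at -2.44.

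Copies named for a member (symbol ending in -ps and a number) gave 117 tested rows, for 46 of the members. Rpl3-ps1 and Rpl31-ps3 were called higher and Rpl3-ps2 lower in Ep300-KO against WT cells, where 5.84% of all genes were called higher and 6.09% lower. Rpl31-ps3 averaged 43.5 ± 6.80 in Crebbp-KO, 50.2 ± 11.3 in Ep300-KO and 18.5 ± 7.38 normalised reads in WT cells (SD), and rose by 1.27 in Crebbp-KO (limma adjusted p = 0.0358) and by 1.45 in Ep300-KO cells (limma adjusted p = 0.0148) on the log2 scale. Rps19-ps6 fell by 0.27 on the log2 scale in Crebbp-KO against WT cells (limma adjusted p = 0.0486). In that comparison 3.48% of all genes were called higher and 4.88% lower. Adding each member's copies to it moved the Ep300-KO change of Rpl3 by 0.36, and that of any other member by at most 0.03 (Rpl14) on the log2 scale. After this step limma still called Rpl22 in Crebbp-KO against WT cells, and Rpl3 lost both of its calls. The members' median log2 changes were then -0.11 in Crebbp-KO against WT, -0.03 in Ep300-KO against WT and -0.09 between the knockouts.

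In Crebbp-KO against WT cells, the log2 changes of the members were small and mostly negative. Of the 80, 78 had a fitted change below 0, against 48.8% of all tested genes, and their median was -0.11 (10th to 90th percentile -0.18 to -0.05), against 0.01 over all genes. The median was -0.11 for the large and -0.11 for the small subunit. All 3 Crebbp-KO libraries were below all 5 WT libraries for 23 members (28.8%), 11 of the large and 12 of the small subunit, against 8.47% of all genes. They were above all WT libraries for 0 members, against 8.43% of all genes. The 18 members (22.5%) with an unadjusted p below 0.05 and a lower level compare with 11.8% of all genes. The members share libraries and move together, so these counts are not independent observations. By library, the median log2 deviation of the 80 members from their own median over libraries was -0.15, -0.04 and 0 in Crebbp-KO libraries. It was 0.15, -0.03, 0.07, 0.00 and -0.01 in WT libraries. CBP-KO_1 held the lowest value of 43 members, and WT_4 the highest of 52. Without CBP-KO_1, 69 members lay below 0 and the median was -0.07.

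**Figure D4:**
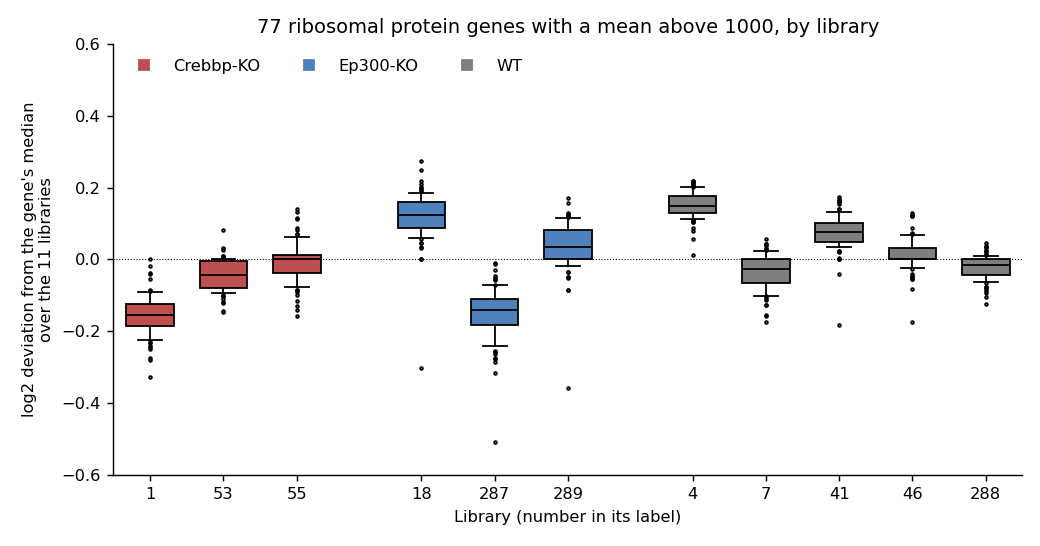
Log2 deviation of 77 ribosomal protein genes (mean above 1000 normalised reads) from each gene's median over the 11 libraries, per library, in Crebbp-KO, Ep300-KO and WT cells; boxes span the quartiles and whiskers the 10th to 90th percentile. The genes of a library move together. By medians over all 80 members, CBP-KO_1 (-0.15) and p300-KO_287 (-0.14) are lowest, and WT_4 (0.15) and p300-KO_18 (0.12) are highest.

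Rpl22 was the member called in that comparison. RPL22 is a large subunit protein that is not essential to the ribosome, is needed in lymphocyte development, and represses its own paralog Rpl22l1. The gene lies at chr4:152325742-152334071 on the plus strand (GRCm38). It held 21607, 23472 and 22643 normalised reads in Crebbp-KO libraries. It held 26026, 22612 and 24983 in Ep300-KO libraries, and 27168, 25467, 25608, 26532 and 24933 in WT libraries. Crebbp-KO and WT libraries did not overlap, and Rpl22 fell by 0.20 on the log2 scale (SE 0.05, limma adjusted p = 0.0402, exact permutation p = 0.0179, the smallest possible). The Ep300-KO libraries overlapped both other groups. The call was lost in 11 of 26 alternative settings, with an adjusted p of up to 0.138 without CBP-KO_1. Other libraries whose removal ended it were CBP-KO_53 (0.0774), CBP-KO_55 (0.120), WT_4 (0.0776), WT_7 (0.0637), WT_41 (0.0675), WT_46 (0.0614) and p300-KO_289 (0.0534), and so did adding genes below the level threshold (0.0690). Rpl22l1, which the symbol pattern left out, held 6142, 6904 and 7369 in Crebbp-KO and 6507, 6365, 6256, 5390 and 6560.0 in WT libraries, and these groups overlapped (log2 change 0.13, limma adjusted p = 0.343).

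Other members with small p in Crebbp-KO against WT cells did not pass the test. Rps19, a small subunit protein and the gene most often mutated in the inherited anaemia Diamond-Blackfan, held 36250, 38727 and 38274 normalised reads in Crebbp-KO and 48203, 42775, 44004, 40803 and 41508 in WT libraries. Each Crebbp-KO value was below each WT value, at a log2 change of -0.20 (limma adjusted p = 0.0792). Rpl34 held 23090, 23426 and 24143 in Crebbp-KO and 28856, 25908, 27966, 26465 and 25426 in WT libraries, again without overlap (log2 change -0.19, limma adjusted p = 0.0831). Rpl17, at the peptide exit, averaged 17647 ± 315 in Crebbp-KO and 19973 ± 1003 in WT cells (SD, log2 change -0.18, limma adjusted p = 0.0969). Rps7, which can bind MDM2, averaged 46643 ± 787 in Crebbp-KO and 51764 ± 2742 in WT cells (SD, log2 change -0.15, limma adjusted p = 0.145).

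**Figure D5:**
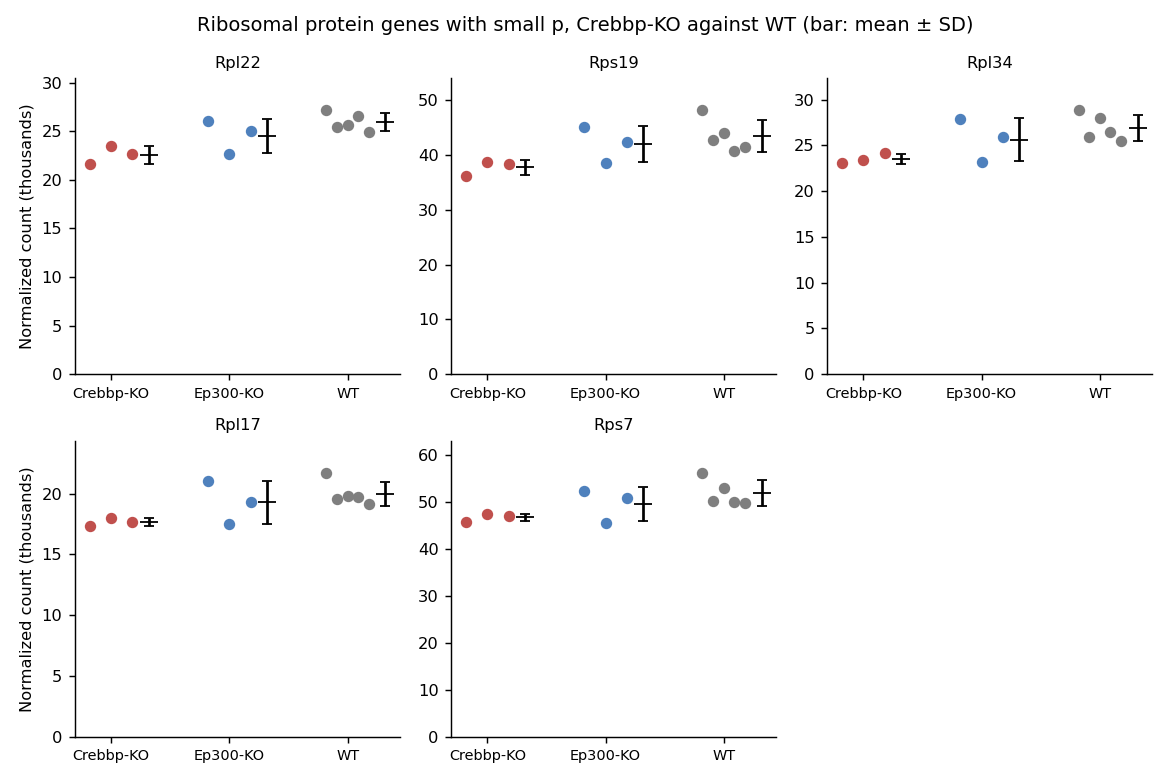
Normalised reads per library (points, with mean and SD) of 5 members with small p in Crebbp-KO against WT cells: Rpl22, Rps19, Rpl34, Rpl17 and Rps7, in Crebbp-KO, Ep300-KO and WT cells. Rpl22 (log2 change -0.20) is the one called by limma, and the Ep300-KO libraries lie across the range of the other groups.

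In Ep300-KO against WT cells the members other than Rpl3 showed a wide spread between the Ep300-KO libraries. Of the 80, 58 had a fitted change below 0, against 51.0% of all genes, with a median of -0.03, against -0.01 over all genes. Ep300-KO libraries had median deviations of 0.12, -0.14 and 0.03, and p300-KO_287 held the lowest value of 33 members. Without it, 19 of 80 lay below 0 and the median was 0.06. Rpl3 and Rps16 were the 2 members with all Ep300-KO libraries below all WT libraries, against 9.40% of all genes, and 0 members had all of them above, against 9.63%. Rps16, at the head of the small subunit, held 45943, 36918 and 43266 normalised reads in Ep300-KO libraries. It held 52310, 46887, 49242, 45996 and 47011 in WT libraries, the nearest values being 45943 in Ep300-KO and 45996 in WT cells. Its log2 change was -0.20 (limma adjusted p = 0.0743), and the adjusted p was 0.0410 without p300-KO_18 and 0.0365 without both WT_46 and p300-KO_18. Without p300-KO_287 the log2 change was -0.11 (limma adjusted p = 0.295). Rpl14 held 32167, 26892 and 32048 in Ep300-KO and 35095, 31805, 34331, 33292 and 33152 in WT libraries, with overlap (log2 change -0.15, limma adjusted p = 0.179). Rps20 (-0.11), Rps10 (-0.10) and Rpl13 (-0.11) followed, at limma adjusted p of 0.271, 0.332 and 0.362.

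Between the knockouts, 70 of 80 members had a fitted change below 0 in Crebbp-KO against Ep300-KO cells, against 50.6% of all genes, with a median of -0.08. For 0 members were all Crebbp-KO libraries below all Ep300-KO libraries, against 15.6% of all genes, and for 1 (Rpl3) all were above, against 15.5%. Rpl37a held 26504, 28092 and 29022 normalised reads in Crebbp-KO and 35898, 28732 and 32275 in Ep300-KO libraries (log2 difference -0.21, limma adjusted p = 0.116). Rpl41, which encodes the smallest ribosomal protein, held 42179, 45494 and 46955 in Crebbp-KO and 56384, 44622 and 52998 in Ep300-KO libraries (log2 difference -0.19, limma adjusted p = 0.166). In both genes p300-KO_287 reached into the Crebbp-KO values, and p300-KO_18 was highest. Rps4x (X-linked, -0.16), Rpl10a (-0.15) and Rps19 (-0.15) came next, at limma adjusted p of 0.187, 0.220 and 0.223. Without p300-KO_287, 5 of 80 members were called in this comparison, Rpl3, Rpl37a, Rpl41, Rps14 and Rps18. Of the 16515 tested genes, 512 were then called higher and 394 lower in Crebbp-KO cells. The count of members was not tested against these all-gene counts. Without p300-KO_18, 50 of 80 lay below 0.

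Grouped by place in the ribosome, limma, edgeR and DESeq2 called 0 genes of the stalk, the 5S particle and the peptide exit site in any comparison. At an unadjusted p below 0.05 in limma, 1 of 4 stalk genes (Rpl12), 0 of 2 genes of the 5S particle and 2 of 7 exit site genes were lower in Crebbp-KO against WT cells, and 0 of them in the other comparisons. At that level 11.8% of all genes and 22.5% of the 80 members were lower in Crebbp-KO against WT cells. The counts of these small groups, and of those below, were not tested against these shares. Median log2 changes in Crebbp-KO against WT cells were -0.05 for the stalk (Rplp0, Rplp1, Rplp2, Rpl12), -0.08 for the 5S particle (Rpl5, Rpl11) and -0.12 for the exit site, within the range of the other members. Rpl12 averaged 52538 ± 3647 in Crebbp-KO and 59039 ± 4075 normalised reads in WT cells (SD, log2 change -0.17, limma adjusted p = 0.216). Rpl5 averaged 78878 ± 4231 in Crebbp-KO and 83233 ± 3442 in WT cells (SD, limma adjusted p = 0.493). Of 10 genes at the head and decoding site of the small subunit, 0 were called by limma or edgeR in any comparison. DESeq2 called 1 of them (Rps19) in Crebbp-KO against WT cells, where 5 had an unadjusted p below 0.05 in limma and their median was -0.15. In Ep300-KO against WT cells 1 of the 10 (Rps16) was at that level. Of 18 members mutated in Diamond-Blackfan anaemia, 0 were called by limma or edgeR and 1 by DESeq2, with 5 in limma at an unadjusted p below 0.05 in Crebbp-KO against WT cells and a median of -0.12. The p53 inhibitor Mdm2 averaged 10065 ± 532 in Crebbp-KO, 9552 ± 276 in Ep300-KO and 10036 ± 1104 in WT cells (SD, limma adjusted p = 0.966 and 0.673 against WT).

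The variant paralogs among the members differed widely in level. Rps27l, a paralog of Rps27 that p53 induces, held 3841, 4069 and 4205 normalised reads in Crebbp-KO, 3994, 3385 and 3835 in Ep300-KO and 4248, 3516, 3382, 3401 and 3887 in WT libraries. It had the highest fitted change of the members in Crebbp-KO against WT cells, 0.14 on the log2 scale (limma adjusted p = 0.376), and Rpl36 was the other member above 0, at 0.01. Rpl39l, a paralog of Rpl39 best known from testis, ranged from 0 to 51.1 in Crebbp-KO, 27.6 to 115 in Ep300-KO and 0 to 152 in WT libraries. Its log2 change in Crebbp-KO against WT cells had a 95% interval of -4.95 to 1.61, so these libraries set little limit on it. Rpl6l averaged 8193 ± 1100 in Crebbp-KO, 8377 ± 695 in Ep300-KO and 8313 ± 407 in WT cells (SD), and Rps4l averaged 306 ± 73.7 in Crebbp-KO, 305 ± 33.9 in Ep300-KO and 364 ± 116 in WT cells. Rpl6l, Rps4l and Rpl32l are annotated as processed pseudogenes, so reads of Rpl6, Rps4x and Rpl32 could reach them. Of the 4 X-linked members Rpl10, Rpl36a, Rpl39 and Rps4x, 0 were called by limma, edgeR or DESeq2. At an unadjusted p below 0.05 limma had 1 of them, Rps4x, lower in Crebbp-KO against Ep300-KO cells, against 12.6% of all genes.

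The 4 ribosomal protein genes listed from outside the symbol pattern behaved within the members' range. Rpsa, Fau, Rps3a1 and Rack1 all had fitted log2 changes below 0 in each comparison, with medians of -0.15 in Crebbp-KO against WT, -0.06 in Ep300-KO against WT and -0.07 between the knockouts. Limma, edgeR and DESeq2 called 0 of them, and 1 of 4 (Fau) had an unadjusted p below 0.05 in limma against WT in either knockout. Of all genes, 11.8% in Crebbp-KO and 12.8% in Ep300-KO cells were lower than WT at that level. Fau, which fuses a ubiquitin-like protein to RPS30, averaged 35637 ± 1707 in Crebbp-KO, 36307 ± 2069 in Ep300-KO and 39884 ± 2530 normalised reads in WT cells (SD, limma adjusted p = 0.134 and 0.188 against WT). Of 5 paralogs outside the pattern, limma and edgeR called 0, and DESeq2 called 1 lower in Ep300-KO against WT cells. By limma that comparison had 1 paralog at an unadjusted p below 0.05, Rsl24d1, a ribosome assembly factor, with a log2 change of -0.22 (adjusted p = 0.0681).

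Other genes of the translation machinery were compared from lists of known function. Of 21 elongation factors and other TOP mRNA genes, Gas5, a host gene of small nucleolar RNAs, fell by 0.25 on the log2 scale in Crebbp-KO against WT cells (limma adjusted p = 0.0411). It averaged 6962 ± 602 in Crebbp-KO, 8344 ± 309 in Ep300-KO and 8247 ± 554 normalised reads in WT cells (SD). Its call was lost in 13 of 26 alternatives, among them those without CBP-KO_1, CBP-KO_53, WT_7, WT_41, WT_46, WT_288, p300-KO_18 or p300-KO_289 (adjusted p up to 0.177). Nap1l1, a histone chaperone, fell by 0.23 in Ep300-KO against WT cells (limma adjusted p = 0.0142), and the call was lost with quantile normalization (adjusted p = 0.0794). The median of the list was -0.08 in Crebbp-KO and -0.04 in Ep300-KO against WT cells. Its median deviations were -0.12 in CBP-KO_1, -0.09 in p300-KO_287 and 0.15 in WT_4, the libraries that also had low and high ribosomal protein genes.

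Of 29 translation initiation factors, limma, edgeR and DESeq2 called 0 in Crebbp-KO against WT cells. At an unadjusted p below 0.05 in limma 2 were higher and 1 lower there, against 10.7% and 11.8% of all genes. In Ep300-KO against WT cells limma called 3 of the 29 lower, against 6.09% of all genes. Eif6, which keeps the subunits apart, averaged 6373 in Ep300-KO and 7553 normalised reads in WT cells (log2 change -0.25, limma adjusted p = 0.0239), and its call was lost in 3 of 26 alternatives. The limma adjusted p was 0.0957 without p300-KO_287, 0.103 without CBP-KO_1 and p300-KO_287, and 0.0531 without WT_46 and p300-KO_18. Eif1 fell by 0.20 (limma adjusted p = 0.0356, lost in 11 of 26 alternatives) and Eif5a by 0.26 (limma adjusted p = 0.0433, lost in 13 of 26). Of 20 genes of mTORC1 and TOP mRNA control, Rragc rose by 0.20 in Crebbp-KO against WT cells (limma adjusted p = 0.0231, lost in 5 of 26 alternatives). Rraga, a second Rag GTPase that brings mTORC1 to lysosomes, fell by 0.34 in Ep300-KO against WT cells (limma adjusted p = 0.0431, lost in 14 of 26), and its log2 change in Crebbp-KO against WT cells was -0.34 (limma adjusted p = 0.0532). Of 15 escorts and importins of ribosomal proteins, Ipo9 rose by 0.22 in Crebbp-KO against WT cells (limma adjusted p = 0.0320, lost in 7 of 26 alternatives). Between the knockouts, Ipo7 (log2 difference 0.32) and Tnpo1 (0.28), importins that carry ribosomal proteins into the nucleus, and Eif1ax (0.32), Eif4g2 (0.25) and Eif4h (0.23) were called higher in Crebbp-KO cells. Their limma adjusted p values were 0.0241, 0.0237, 0.0159, 0.0321 and 0.0421, and their calls were lost in 6, 6, 3, 11 and 12 of 26 alternatives. In that comparison limma, edgeR and DESeq2 called 0 genes of the mTORC1 list. At an unadjusted p below 0.05 in limma 5 of its 20 genes were higher and 0 lower, against 12.4% and 12.6% of all genes.

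Of 12 transcription factors known at ribosomal protein promoters, Myc was called lower in Crebbp-KO cells. It held 3441, 2736 and 2698 normalised reads in Crebbp-KO libraries and 5801, 5183 and 5268 in Ep300-KO libraries. WT libraries held 5850.2, 4737, 4404, 3720.0 and 4832. All Crebbp-KO libraries were below all others, and Myc fell by 0.66 on the log2 scale against WT (SE 0.12, limma adjusted p = 0.00586) and by 0.88 against Ep300-KO cells (limma adjusted p = 0.00207). Both calls held in 26 of 26 alternatives. In Ep300-KO against WT cells E2f1 fell by 0.27 (limma adjusted p = 0.0114), and the call was lost without p300-KO_287 (adjusted p = 0.0531). Gabpb1 (-0.20), Yy1 (-0.16) and Nrf1 (-0.16) were also called lower, at limma adjusted p of 0.0235, 0.0202 and 0.0455, and lost their calls in 6, 6 and 18 of 26 alternatives. Of the 12 factors 4 were thus called lower there, against 6.09% of all genes. Between the knockouts E2f1 (0.40, limma adjusted p = 0.00295) and Yy1 (0.25, limma adjusted p = 0.00488) were higher in Crebbp-KO cells in log2 terms, in 26 of 26 alternatives each, and Nrf1 (0.19, limma adjusted p = 0.0375) was so with its call lost in 12. Any part of Myc in the ribosomal protein values was not tested.

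Some genes listed as markers of other cells also differed between the groups. Summed macrophage markers were 1969 to 2879 normalised reads in Crebbp-KO, 2409 to 3236 in Ep300-KO and 3502 to 9378 in WT libraries. Of 9 tested markers, 4 were called lower in Crebbp-KO and 1 (Mpeg1) in Ep300-KO against WT cells. Mpeg1 alone averaged 1372 in Crebbp-KO, 1466 in Ep300-KO and 3561 in WT cells, against mean sums of 2399, 2872 and 5256. Summed T cell markers were 4868 to 6001 in Crebbp-KO, 4605 to 5924 in Ep300-KO and 9001 to 11208 in WT libraries. Of 4 tested, 2 (Lat and Lck) were called lower in Crebbp-KO and 1 (Lck) in Ep300-KO against WT cells. Lck alone averaged 5100 in Crebbp-KO, 5271 in Ep300-KO and 9718 in WT cells, against mean sums of 5251, 5475 and 9980. The macrophage and T cell sums thus rest largely on single genes and do not measure numbers of those cells. Summed plasma cell secretory genes were 109271 to 116885 in Crebbp-KO, 151556 to 169941 in Ep300-KO and 109926 to 130530 in WT libraries, and 6 of 8 were called higher in Ep300-KO against WT cells. Summed erythroid markers were 214 to 504.4 in Crebbp-KO, 92.1 to 301 in Ep300-KO and 287.7 to 538 in WT libraries, and of these Slc4a1 was at 0 in every library and Hbb-bt was called lower in Ep300-KO against WT cells. The part of these cells in the ribosomal protein values was not tested. Without WT_46 and p300-KO_18, Rpl22 lost its call (limma adjusted p = 0.0592) and Rpl3 kept both of its calls.

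Promoters were read from the RefSeq promoter table (GRCm38.p6), which held 69 starts of 58 members, and Rpl3 is among those not listed. Windows of 40 bases before to 20 bases after the start nearest the annotated 5′ end are shown for members among the 6 of smallest p in Crebbp-KO (Rpl22, Rps19, Rpl34, Rps7) or Ep300-KO (Rps16, Rpl14, Rps10) against WT cells, to show how far their pyrimidine runs differ. Capitals mark the longest run of C and T within the window. The windows are chr4:152325686-152325745 (plus strand) for Rpl22, chr7:24884552-24884611 (plus) for Rps19, chr3:130730379-130730438 (minus) for Rpl34 and chr12:28635934-28635993 (minus) for Rps7. They are chr7:28350649-28350708 (plus) for Rps16, chr9:120571477-120571536 (plus) for Rpl14 and chr17:27635225-27635284 (minus) for Rps10.
Rpl22: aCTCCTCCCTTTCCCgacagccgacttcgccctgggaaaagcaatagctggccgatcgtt
Rps19: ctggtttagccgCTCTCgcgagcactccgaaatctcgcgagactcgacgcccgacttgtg
Rpl34: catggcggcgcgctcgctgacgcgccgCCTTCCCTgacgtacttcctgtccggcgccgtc
Rps7: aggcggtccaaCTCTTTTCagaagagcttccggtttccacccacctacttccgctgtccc
Rps16: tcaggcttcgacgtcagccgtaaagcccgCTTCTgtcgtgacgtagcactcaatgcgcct
Rpl14: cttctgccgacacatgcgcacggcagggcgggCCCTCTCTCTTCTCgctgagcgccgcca
Rps10: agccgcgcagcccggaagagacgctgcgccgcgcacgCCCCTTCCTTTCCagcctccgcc

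The longest run was 14 bases in Rpl22 and Rpl14 and 13 bases in Rps10, and 5 bases in Rps19 and Rps16. The Rpl14 and Rps10 runs lie across the start, whereas that of Rpl22 begins 39 bases before it (-39). A second listed start of Rpl34, not shown, had a run of 20 bases across it. Rpl13, also among the 6 of smallest p in Ep300-KO against WT cells, has a listed start but is not shown. Its longest run within 30 bases before to 20 bases after the start was 10 bases, and its run across the start was 4 bases. Over all member starts, 30.4% had a C and T run of at least 5 bases across the start, against 10.1% of 32851 starts of all genes. A listed start can differ from the annotated 5′ end, as it does for Rpl22. These shares therefore do not measure how many of the mRNAs begin with a TOP motif. A run of at least 8 bases within 30 bases before to 20 bases after the start was present in 49.3% of member starts and 20.2% of all starts. The motif CCGGAAG, known to be bound by ETS factors such as GABPA, was found on either strand in 36.2% of member and 8.86% of all starts. The GC box GGGCGG was found in 58.0% and 35.7%, AAGATGG, a core of the YY1 motif, in 15.9% and 6.34%, and TATAAA in 10.1% and 13.6%, members first and all starts second, all over entries of 300 bases. Matches can share end letters, and CCGGAAG and AAGATGG shared their AAG in 0 of 69 member starts and 5 of 32851. A match describes these letters and no binding.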

How the data were processed

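Per the labels' protocols, total RNA of sorted cells was made into TruSeq RNA v2 libraries, which do not keep strand. Per the submitters' processing notes, CASAVA 1.8, HISAT2, featureCounts and DESeq2 were used with mm10; settings are not given in the sources used here. The deposited signal values are read counts per gene after the authors' DESeq2 normalization, which scales each library by 1 factor. Within a tolerance of 1e-06, 100% of values were whole multiples of 1 step per library, so whole reads were recovered, for depth and count models only. Of 48593 genes, 22043 were 0 in every library and 16515 had a mean of at least 10.

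The main test was limma 3.58.1 with a variance trend on log2(value + 1), in 1 fit of 3 group means over 11 libraries, two-sided, with Benjamini-Hochberg adjustment over 16515 genes and a call below 0.05. Fold changes are on that scale, which understates those of low genes. For single genes, exact two-sided permutation tests were run over libraries. The same procedure was tested on simulated data, with changes larger than those of most members. That test therefore does not cover changes as small as theirs. Named genes were Rpl3 with its neighbours, called members, the 6 with the smallest p per comparison, extremes of level, variant and X-linked members, and called or leading genes of the context lists; a few genes are not reported here. The members, lists and rules were chosen with earlier results of these data known. The 26 alternatives varied the pseudocount, filter, normalization, model and libraries; edgeR 4.0.16 and DESeq2 1.42.0 were run on recovered reads. Positions came from GENCODE M21 (GRCm38) for 99.2% of tested genes and 80 members. Further software was Python 3.11.15 (scipy 1.17.1, matplotlib 3.10.9, pandas 2.3.3) and R 4.3.3.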

Additional observations from a re-analysis of the deposited data

Results flagged for a closer look

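Rpl3 differed between the knockouts in the direct comparison, with a log2 difference of 0.36 in Crebbp-KO against Ep300-KO cells (limma adjusted p = 0.0118), and the difference was -0.0040 after its 2 processed copies were added to it. Rpl17 in WT_4 held 21702 normalised reads and stood apart above the other 4 WT libraries. Rpl22l1 in WT_46 held 5390.2 and stood apart below the other 4. The last 2 were the samples found far from the rest in 31 sets of WT values examined, and chance gives about 1 in 20.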

How the results depend on the processing

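Of 26 alternatives, 2 were added after seeing the data (members added up with their copies, and leaving out CBP-KO_1 with p300-KO_287). In Crebbp-KO against WT cells the number of ribosomal protein genes called was 1 and became 0 with no filter, without WT_46 and p300-KO_18, and without CBP-KO_1 and p300-KO_287. It became 4 with quantile normalization or library weights, 2 with TMM scaling or only the 2 groups fitted, 3 with DESeq2, and 0 to 3 when 1 library was left out. Rps19, Rpl34 and Rpl4 were among the members that joined Rpl22 in these calls. In Ep300-KO against WT cells it was 1 and became 2 without WT_46 and p300-KO_18, 0 with the copies added, and 1 to 2 when 1 library was left out. Between the knockouts it was 1 and became 2 with quantile normalization, 3 with library weights, 0 with the copies added, and 0 to 5 when 1 library was left out. Adding the copies turned the Rpl3 difference between the knockouts to -0.0040. Adding a higher row to a lower one fixes the direction of that shift by construction, though not its size. For the other settings the cause was not tested.

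Over all genes, 1380, 1970 and 1556 were called in Crebbp-KO against WT, Ep300-KO against WT and Crebbp-KO against Ep300-KO cells. With library weights the first and last became 2730 and 2808, and the last was 787 without CBP-KO_1 and p300-KO_287. With 1 library left out the counts ran from 642 to 1541, 1169 to 2027 and 745 to 1954. Scaling to equal totals moved the Ep300-KO split to 1344 higher and 790 lower, against 965 and 1005. The members' median log2 change stayed between -0.14 and -0.07 in Crebbp-KO and between -0.15 and -0.03 between the knockouts. In Ep300-KO against WT cells it ran from -0.10 to 0.06, and was above 0 with quantile normalization (0.02), equal totals (0.01) or library weights (0.04). It was also above 0 without p300-KO_287 (0.06), without CBP-KO_1 and p300-KO_287 (0.06) and, barely, without WT_4 (0.0007). No paired analysis was possible because no replicate number occurs in more than 1 group. Changes near the members' median are of the size of the pooled SD of library medians (0.0943), and few reads limit the members of low level, such as Rpl39l.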
